A study of Mus musculus with 2 samples.

Results

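The genes Cyth1, Fam53b, Mtss1 and Sema4d were described here through the H3K4me1 regions in a window around each one in mouse pre-B cells. They were chosen from the readout itself, as windows that each held 1 region longer than 40 kb, so region length is given as a description and supports nothing. Of the 12 regions of at least 40 kb in the list, 8 lay outside these windows. All regions overlapping the 4 windows were taken, which gave 66 regions of the 48130 in the list. Chromatin immunoprecipitation with an antibody to H3K4me1 was followed by sequencing in 1 library, beside 1 input library without antibody that entered through the authors' calling only. Per the labels, both came from bone marrow pre-B cells (RAG-/-µ+, genotype RAG1-/-) of C57BL/6 (B6) mice of 6 to 14 weeks and both sexes, which carry a rearranged IgM transgene and lack the recombinase RAG1. Cells of this kind are held at the pre-B stage with 1 fixed heavy chain. The number of mice behind each library is not stated. Per the header of the region list, 50945360 H3K4me1 tags were counted, while the depth of the input is not stated there. There was 1 library per group, so no spread between replicates and no p-value is available. Gene names came with the windows. No mm9 annotation was used, so which exon, intron or promoter lies under a region was not analysed here, and neither RNA nor cell markers were measured to check the labelled cell type.

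Monomethylation of histone H3 at lysine 4 is laid down mainly by the MLL3 and MLL4 methyltransferases at enhancers, and it flanks active promoters, whose centre carries trimethylation instead. Very long unbroken stretches of the mark are known from genes with many enhancers that are active in a cell's own lineage. Cyth1 encodes cytohesin 1, a guanine nucleotide exchange factor for ARF GTPases that acts in integrin-dependent adhesion of leukocytes. Sema4d encodes CD100, a transmembrane semaphorin of lymphocytes that binds plexin-B1 and, on B cells, CD72. Mtss1 encodes an actin- and membrane-binding protein with an I-BAR domain, and Fam53b encodes a protein known from zebrafish to promote nuclear localisation of beta-catenin.

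All 4 names were found in the RefSeq gene table of GRCm38.p6, which was used only for names and gene order, since the regions are on mm9. In that order Cyth1 lies between Dnah17, an axonemal dynein heavy chain gene, and Usp36, which encodes a nucleolar deubiquitinase. Fam53b lies between Lhpp and Eef1akmt2, an elongation factor methyltransferase gene. Mtss1 lies between Ndufb9, which encodes a subunit of respiratory complex I, and Sqle, the squalene epoxidase gene of sterol synthesis. Sema4d lies between Secisbp2, needed for selenoprotein synthesis, and the stress-response gene Gadd45g. Whether these neighbours lie inside the mm9 windows was not analysed here.

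Promoter sequences of 300 bases were listed for 3 of the 4 genes (RefSeq, GRCm38.p6), and Mtss1 was the other. All 3 genes were on the minus strand, so their upstream side is the side of higher coordinates. The most upstream listed start of each follows, 5′ to 3′ on the gene's strand, running from 250 bases before the start to 50 after it. CG dinucleotides are in capitals, because CpG-rich and CpG-poor promoters are known to differ in how H3K4 methylation is spread over them.

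Cyth1: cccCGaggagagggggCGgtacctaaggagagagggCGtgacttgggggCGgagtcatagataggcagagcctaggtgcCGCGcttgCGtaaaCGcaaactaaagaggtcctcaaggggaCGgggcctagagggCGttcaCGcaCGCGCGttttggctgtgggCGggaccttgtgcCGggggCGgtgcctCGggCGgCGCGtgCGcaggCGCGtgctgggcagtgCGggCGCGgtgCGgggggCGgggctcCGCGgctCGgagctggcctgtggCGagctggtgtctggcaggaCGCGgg
Fam53b: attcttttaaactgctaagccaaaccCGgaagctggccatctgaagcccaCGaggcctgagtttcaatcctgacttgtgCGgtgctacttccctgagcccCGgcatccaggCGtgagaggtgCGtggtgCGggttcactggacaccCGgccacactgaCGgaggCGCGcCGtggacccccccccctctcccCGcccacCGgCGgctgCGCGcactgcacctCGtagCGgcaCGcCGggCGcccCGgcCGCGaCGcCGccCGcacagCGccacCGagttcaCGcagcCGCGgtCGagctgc
Sema4d: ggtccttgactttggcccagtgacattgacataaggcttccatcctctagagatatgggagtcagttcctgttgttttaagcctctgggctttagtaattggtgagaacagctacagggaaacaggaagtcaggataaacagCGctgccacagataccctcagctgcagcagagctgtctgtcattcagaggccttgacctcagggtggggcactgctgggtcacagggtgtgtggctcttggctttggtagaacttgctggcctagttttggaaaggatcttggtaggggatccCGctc

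The sequences fell into different classes. The Cyth1 start held 35 CG dinucleotides and the Fam53b start held 34, against a median of 7 over all 32851 listed promoters. As many as 35 were found in 6.95% of those promoters, and as many as 34 in 7.73%. The Sema4d start held 2, and 85.9% of all promoters held at least as many. A CpG-rich promoter was thus not shared by the 3 genes at these listed starts, and other listed starts of Cyth1 and Fam53b held as few as 4. A search on both strands for the E-protein motif CAGGTG, bound by the E2A factors of B cell precursors, found it in none of the 9 listed promoters of these genes, and 20.2% of all promoters held it. CCCNNGGG, the core of the palindrome bound by EBF1, is its own reverse complement. It was found in 1 of the 9, a downstream Fam53b start, and in 13.7% of all promoters. These matches describe letters only.

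**Figure D1:**
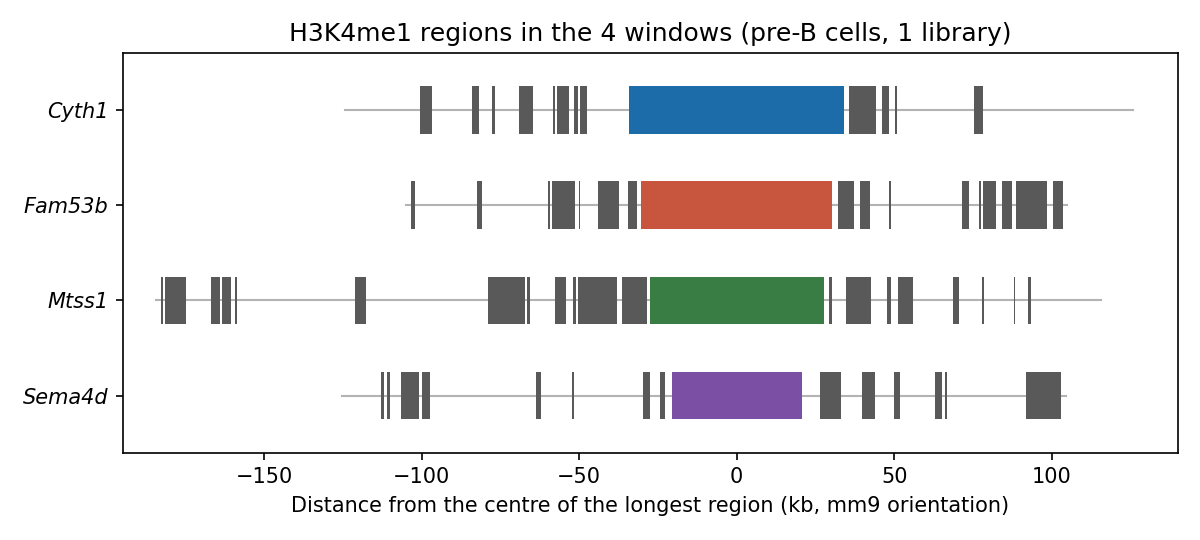
Regions called for H3K4me1 in the 4 windows, drawn to scale, with distance from the centre of the longest region in kb on the horizontal axis and 1 row per gene. The coloured block is the longest region (68.4 kb at Cyth1, 60.7 at Fam53b, 55.3 at Mtss1, 41.2 at Sema4d), dark blocks are the other regions and the thin line is the window.

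Around Cyth1, most of the covered bases lay in 1 block. The region chr11:118040105-118108472 (mm9) ran unbroken for 68.4 kb, which was 66.7% of the 102.5 kb covered in the window of 250 kb. The window held 13 regions, and the 12 others had a median of 2236 bases. The second longest, at 8.65 kb, was the next region on the higher side (chr11:118109944-118118590), 1.47 kb away. It was the 1 other region here of at least 5 kb. The lower edge was different: the next region (chr11:118024486-118026599, 2.11 kb long) lay 13.5 kb away, a gap as wide as or wider than 59.3% of all gaps between neighbouring regions in the list. On the higher side the mark ran out after 2 further short regions, followed by a gap of 24.7 kb.

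Around Fam53b, the mark continued on both sides of the longest block. The region chr7:139874636-139935374 was 60.7 kb long and made up 53.7% of the 113.2 kb covered in a window of 210 kb. Both edges were narrow, 1.29 kb to a region of 3001 bases on the lower side (chr7:139870348-139873348) and 1.94 kb to a region of 4.96 kb on the higher side (chr7:139937318-139942280). Of the 17 regions in the window, 3 besides the longest reached 5 kb. Those of 7.27 kb (chr7:139846489-139853754) and 6.80 kb (chr7:139860906-139867700) lay on the lower side. That of 10.0 kb (chr7:139993676-140003685) lay at the far higher end, in a second group of 6 regions behind a gap of 22.8 kb. Regions covered 53.9% of this window, the highest share of the 4.

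Around Mtss1, long regions were lined up on the lower side. The region chr15:58856786-58912066 was 55.3 kb long, and it made up 42.8% of the 129.2 kb covered in a window of 300 kb. Next to it on the lower side, 0.993 kb away, lay a region of 7.83 kb (chr15:58847967-58855792), and before that, 1.58 kb further, one of 12486 bases (chr15:58833900-58846385). A region of 11.5 kb (chr15:58805486-58817034) lay farther out, and one of 6.74 kb (chr15:58702813-58709555) stood near the window's start, beyond gaps of 37.4 and 38.7 kb. On the higher side the nearest region (chr15:58913639-58914801) was 1.16 kb long and 1.57 kb away, followed by one of 7.97 kb (chr15:58919158-58927124). With 21 regions this window held the most, 12 below the longest and 8 above it.

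Around Sema4d, the longest region was the shortest of the 4. The region chr13:51824791-51865993 was 41.2 kb long and made up 48.6% of the 84.7 kb covered in a window of 230 kb. The neighbour on the lower side, 1.65 kb long (chr13:51821024-51822677), lay 2.11 kb away. The neighbour on the higher side, 6.81 kb long (chr13:51871764-51878571), lay 5.77 kb away. The 15 regions also included one of 5.93 kb (chr13:51738604-51744530) and one of 11.3 kb (chr13:51937123-51948393), at opposite ends of the window. Gaps of 33.5 and 24.9 kb set those ends apart from the middle.

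Each of the 4 long regions was the longest on its chromosome. In the whole list their ranks by length were 1 for Cyth1, 2 for Fam53b, 3 for Mtss1 and 10 for Sema4d. Regions of at least 40 kb numbered 12 in all, 0.0249% of the list, and the 8 that are not members had lengths from 40.1 to 46.6 kb. Just inside the limit lay regions of 40.8 and 40.1 kb, neither of them a member, and just outside it regions of 39.7 and 39.6 kb. The 3 longest members thus stood above the other long regions, and Sema4d stood among them. Within their own windows, the longest region was 7.91 times the second longest at Cyth1, 6.07 times at Fam53b, 4.43 times at Mtss1 and 3.66 times at Sema4d. The rows of the deposited list are in neither position nor strict length order, and the header does not say what orders them. The row number followed length closely (Spearman rank correlation -0.97 across the 48130 regions, a description). The Fam53b region stood in row 1, Cyth1 in row 2, Mtss1 in row 3 and Sema4d in row 6, ahead of 4 regions that are longer than it.

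**Figure D2:**
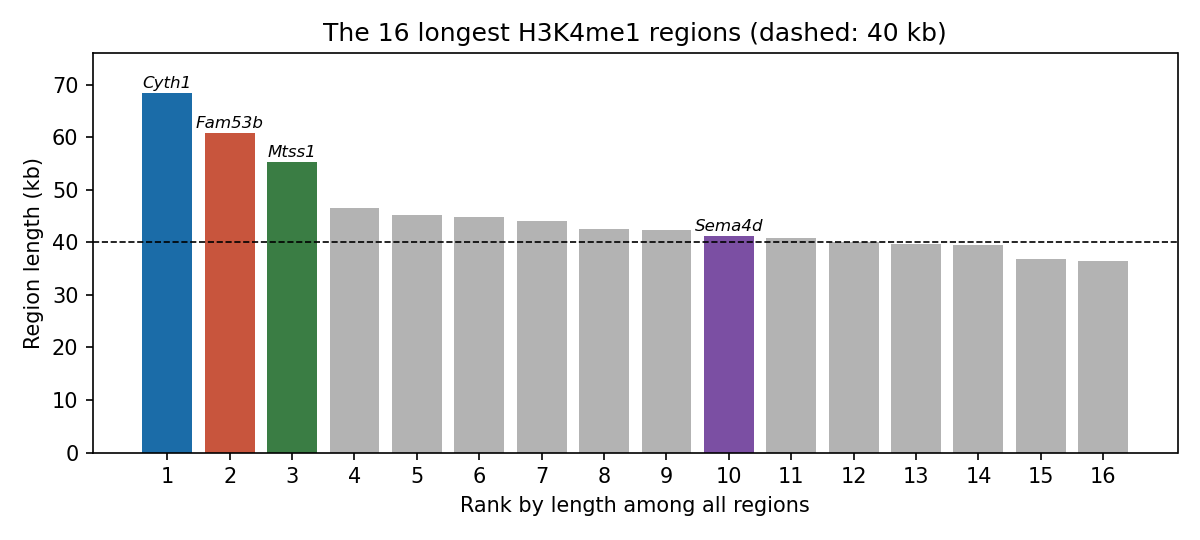
Length in kb (vertical axis) of the 16 longest regions, by rank in the whole list (horizontal axis). Coloured bars are the member genes and grey bars are other regions. Cyth1, Fam53b and Mtss1 stand above 50 kb and Sema4d stands at 41.2 kb, close to the dashed line at 40 kb.

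The 4 windows were marked far more densely than their chromosomes, also outside the longest region. Regions covered 41.0% of the Cyth1 window against 7.39% of the span of chromosome 11. At Fam53b it was 53.9% against 4.65% of chromosome 7, at Mtss1 43.1% against 4.84% of chromosome 15 and at Sema4d 36.8% against 4.56% of chromosome 13. Among 10250 consecutive tiles of 250 kb over the autosomes and chromosome X, 0.41% were covered as much as the Sema4d window, the lowest of the 4, or more. The windows were placed around long regions, so nothing is read from that share or from the excess over the chromosomes. With the longest region and its bases taken out, 18.8% of the rest was still covered at Cyth1, 35.2% at Fam53b, 30.2% at Mtss1 and 23.1% at Sema4d. These shares were 2.54 times that of the whole chromosome at Cyth1, 7.56 times at Fam53b, 6.24 times at Mtss1 and 5.06 times at Sema4d. Dense surroundings were not particular to these windows. Measured instead within 50 kb of a region's edges, the median covered share was 30.8% for the 4 members. It was 40.4% for the other regions of at least 40 kb and 23.8% for the other regions of at least 10 kb. The 40.4% was raised by neighbouring chr6 regions that lie in each other's flanks, as described below. Cyth1 had the longest region and the lowest share outside it within these windows, although within 50 kb of the edges the share was lowest at Sema4d. By number, the windows held 52.0 regions per Mb at Cyth1, 81.0 at Fam53b, 70.0 at Mtss1 and 65.2 at Sema4d, against 29.9 on chromosome 11, 19.2 on chromosome 7, 20.6 on chromosome 15 and 19.4 on chromosome 13.

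The regions beside the longest ones had a higher median length than the list. The 62 other regions in the windows had a median of 2164 bases, against 1497 for the whole list, and ran from 501 to 12486 bases. The 8 nearest neighbours of the 4 longest regions had a median of 3982 bases. Nearest neighbours had a median of 3039.5 bases at other regions of at least 40 kb and 1980 at other regions of at least 10 kb. Of the 62 regions, 22 were shorter than the median of the list, which by definition has about as many regions below it as above it. Among the 62, 12 (19.4%) reached 5 kb, against 8.92% of the list. Of the 8 nearest neighbours alone, 3 (37.5%) reached it. For nearest neighbours this share was 43.75% at other regions of at least 40 kb and 19.9% at other regions of at least 10 kb. A length of 10 kb was reached by 4 of the 62 (6.45%), against 2.15% of the list. The shortest possible length, 501 bases, was held by 6 of them (9.68%), against 14.3% of the list. By window, 3 such shortest regions lay at Fam53b, 2 at Mtss1 and 1 at Sema4d, and the shortest at Cyth1 had 628 bases. The window limits were set with the data in view and these regions share their surroundings, so no test was made.

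The edges of the 4 long regions were mostly narrow. Of their 8 edges, 6 (75%) lay within 2.5 kb of the next region, and the other 2 were the lower edge at Cyth1 and the higher edge at Sema4d. The median edge gap was 1.76 kb. For the 8 other regions of at least 40 kb, 9 of 16 edges (56.3%) were that narrow, with a median gap of 1.33 kb. Among these 8, chr6:120504882-120547410 and chr6:120548712-120591006 are neighbours. Their shared gap of 1.30 kb was counted as an edge of each. Edges that narrow made up 41.5% for the other 1032 regions of at least 10 kb and 26.0% for all other regions, with median gaps of 3.46 and 8.88 kb. Narrow edges were thus also common at other long regions. The caller searched peaks of 500 bases with a minimum distance of 1000 bases, so where a long stretch ends and the next region begins depends on the caller's window. The smallest gap in the list was 499 bases.

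Coverage near the edges differed between the 4 genes. Within 50 kb of the longest region, taking both sides together, other regions covered 30.4% at Cyth1, 31.3% at Fam53b, 52.9% at Mtss1 and 21.5% at Sema4d. Their median was 30.8%, against 40.4% for the 8 other regions of at least 40 kb (range 24.9 to 75.1%). The neighbouring chr6 regions among these 8 lie in each other's flanks and had the highest shares, 57.0 and 75.1%. The median of the 8 is raised by them. The rest of the 8 had 24.9, 25.1, 28.9, 31.6, 49.2 and 50.9%, which lie on both sides of the members' median of 30.8%. The gap between 30.8 and 40.4% thus depends on the chr6 regions, and no sparser surroundings of the members are read from it. For the other regions of at least 10 kb the median was 23.8% (25th and 75th percentiles 13.6 and 34.1%). All other regions had a median of 10.6% (4.56 to 19.8%). Mtss1 was above the 75th percentile of the regions of at least 10 kb, and Sema4d was below their median. Against the 8 other regions of at least 40 kb, Cyth1, Fam53b and Mtss1 lay within the range and Sema4d lay below it.

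The sides were unequal at Mtss1 and Sema4d, in opposite directions. At Mtss1, 71.9% of the 50 kb on the lower side was covered, against 33.9% on the higher side. At Sema4d it was 11.8% on the lower side and 31.2% on the higher side. Cyth1 (32.2% lower, 28.6% higher) and Fam53b (36.1% lower, 26.4% higher) were closer to even. No side was shared by all 4 genes.

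**Figure D3:**
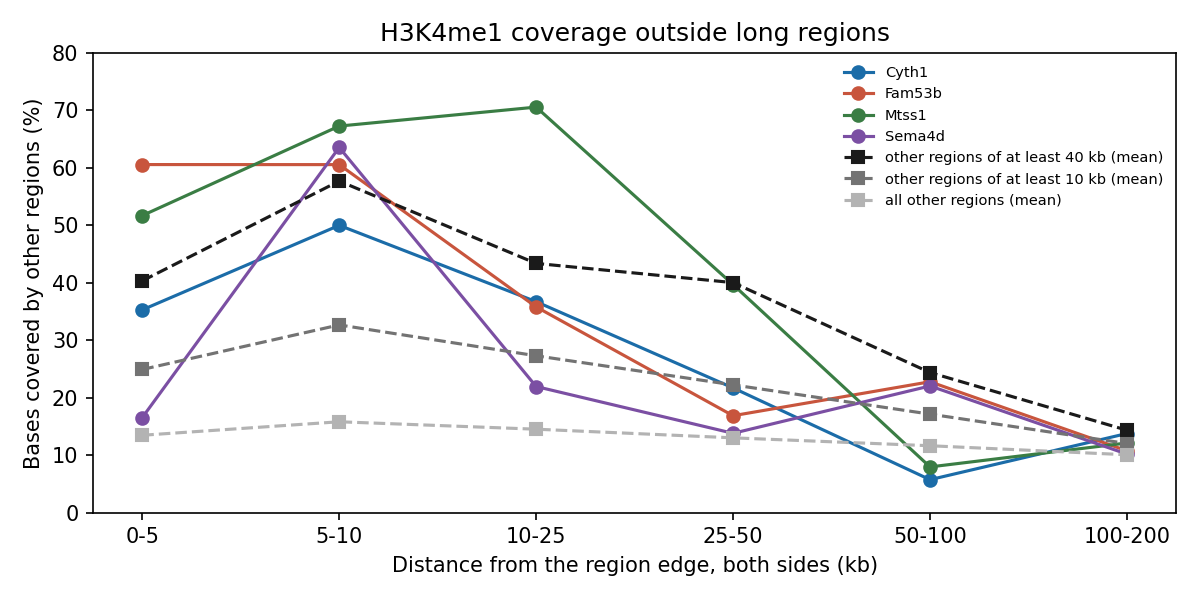
Mean share of bases covered by other regions (vertical axis, %) by distance from the region's edge on both sides (horizontal axis, kb). Solid lines are the 4 member regions and dashed lines are means over the other regions of at least 40 kb (8), of at least 10 kb (1032) and all others. At 10 to 25 kb the share was 70.6% at Mtss1, 36.7% at Cyth1, 35.8% at Fam53b and 21.9% at Sema4d.

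At 50 to 100 kb from the edges, coverage was 5.73% at Cyth1 and 7.95% at Mtss1, below the 11.6% averaged over all other regions. At Fam53b (22.8%) and Sema4d (22.0%) it was above that mean, close to the 24.4% of the other regions of at least 40 kb. At Fam53b these distances take in part of the second group of regions described above. At Sema4d they take in the regions set apart at both ends of the window. At 100 to 200 kb all 4 had 10.2 to 13.8%, and all other regions averaged 10.1%.

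Bridging short gaps changed which of the 4 was longest. Joining regions up to 2.5 kb apart gave 88.1 kb at Mtss1 from 6 regions, 85.0 kb at Cyth1 from 4, 76.9 kb at Fam53b from 4 and 45.0 kb at Sema4d from 2. In the list joined the same way, Mtss1 stood at rank 2, Cyth1 at 3, Fam53b at 4 and Sema4d at 39. The joined stretches were covered to 92.2% at Mtss1, 93.9% at Cyth1, 93.2% at Fam53b and 95.3% at Sema4d. Mtss1 gained by 5 breaks of 500 to 2237 bases that were bridged there, against 3 at Cyth1, and the first place passed to a stretch outside these windows.

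Stitching over gaps of up to 12500 bases gave a domain of 135.0 kb with 11 regions at Mtss1, 108.7 kb with 9 at Fam53b, 96.7 kb with 8 at Sema4d and 85.0 kb with 4 at Cyth1. By covered length, Mtss1 (107.7 kb) stood at rank 11 of 20379 domains, Fam53b (87.2 kb) at rank 21, Cyth1 (79.8 kb) at rank 32 and Sema4d (60.6 kb) at rank 90. By span the ranks were lower, 46 for Mtss1, 113 for Fam53b, 164 for Sema4d and 250 for Cyth1, and Sema4d stood before Cyth1. The Cyth1 domain was covered to 93.9% and the Sema4d domain to 62.7%. The longest single region was 85.6% of the covered length of its domain at Cyth1 and 51.3% at Mtss1, with 69.6% at Fam53b and 68.0% at Sema4d. At this setting the longest region thus made up the largest share of its domain at Cyth1 and the smallest at Mtss1. The gap of 13.5 kb below the Cyth1 region lay just past the limit. With gaps of up to 5 kb the largest share was 91.6% at Sema4d, against 85.6% at Cyth1, and Mtss1 again had the smallest, 62.0%.

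**Figure D4:**
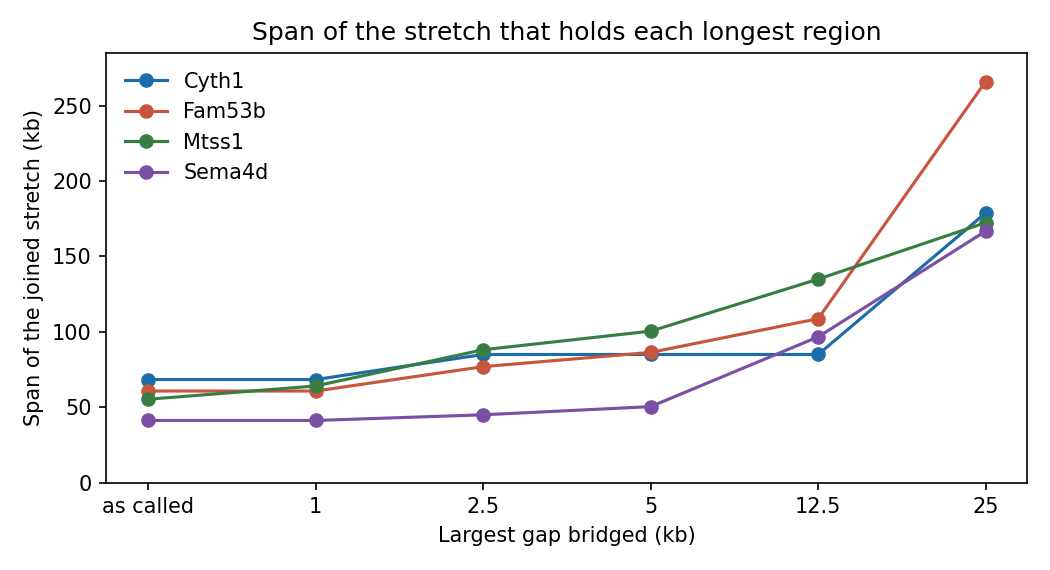
Span in kb (vertical axis) of the stretch that holds each longest region when gaps up to the size on the horizontal axis (kb) are bridged, with 1 line per gene. Cyth1 stays at 85.0 kb from 2.5 kb to 12500 bases, where Mtss1 reaches 135.0 kb, and at 25 kb Fam53b reaches 266.1 kb, past the lower limit of its window.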

How the data were processed

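One deposited list of H3K4me1 regions from 1 library of mouse pre-B cells was used. The aligner Bowtie 0.12.9, the caller HOMER 4.7 and the build mm9 are named in the submitters' processing notes. Per the file headers, HOMER findPeaks in histone style called 500-base peaks with at least 26 tags, 4-fold over input (Poisson 0.0001), and stitched them into regions. The score deposited by the authors is 1 throughout and carries no signal, and the deposited starts and ends, counted from 0, were the other values used, printed counting from 1. A stricter score threshold could not be set, and a length minimum of 1000 bases was the alternative. Coverage is covered bases over window, flank or span length; chromosome span runs from first to last region. Flanks and edges were compared with those of other regions of the same list, leaving out flanks past a span's end. Shares of regions carry no interval, since neighbouring regions of 1 library are not independent. Named were the 4 genes, the next protein-coding gene by start on either side, and, in each window, the longest region, its nearest neighbours and every region of at least 5 kb. The members, windows and motifs were chosen with earlier results of these data known. The interval code was tested on simulated data. Python 3.11.15, numpy 2.4.6, pandas 2.3.3, scipy 1.17.1, statsmodels 0.14.6 and matplotlib 3.10.9 were used.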

Additional observations from a re-analysis of the deposited data

How the results depend on the processing

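The region counts of all 4 windows stayed within 1.5 times when regions under 1000 bases were left out or only regions wholly inside counted. The covered shares stayed within a Wilson 95% interval over units of 1 kb when regions under 1000 bases were left out or the window was centred on the longest region. That interval treats units of 1 kb as independent, which neighbouring units of 1 library are not. It served only as a yardstick for the size of a change and measures no spread. Joining gaps of up to 1 kb changed the length at Mtss1 alone, to 64.1 kb, and the ranks became 1 (Cyth1), 3 (Fam53b), 2 (Mtss1) and 20 (Sema4d). At 2.5 kb the lengths became 85.0 kb (Cyth1), 76.9 (Fam53b), 88.1 (Mtss1) and 45.0 (Sema4d), with ranks 3 (Cyth1), 4 (Fam53b), 2 (Mtss1) and 39 (Sema4d). At 5 kb, an alternative added after seeing the data, they were 85.0 kb (Cyth1), 86.4 (Fam53b), 100.5 (Mtss1) and 50.4 (Sema4d), with ranks 7 (Cyth1), 6 (Fam53b), 3 (Mtss1) and 89 (Sema4d). Flanks of 25 kb were covered to 45.7% at Fam53b and 66.1% at Mtss1, and flanks of 100 kb to 18.1% at Cyth1 and 30.4% at Mtss1. The other flank values stayed within the interval but were not all close to those at 50 kb. At 25 kb they were 39.1% at Cyth1, against 30.4% at 50 kb, and 29.2% at Sema4d, against 21.5%. At 100 kb they were 27.0% at Fam53b, against 31.3%, and 21.8% at Sema4d. Stitching over 5 kb gave domains of 86.4 kb (Fam53b), 100.5 (Mtss1) and 50.4 (Sema4d), with Cyth1 as before, and stitching over 25 kb gave 178.8 kb (Cyth1), 266.1 (Fam53b), 172.4 (Mtss1) and 166.8 (Sema4d). These shifts follow from the gap or flank used. No paired analysis was possible because there was 1 library per group and no test. No tag count per region was used, so how near any edge lies to the calling threshold is unknown.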
